A study of Macaca mulatta with 13 samples.

Results

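FCER2 B cells are colon B lymphocytes of the rhesus macaque (Macaca mulatta) in which RNA of FCER2, the gene of the low-affinity IgE receptor CD23, was counted and RNA of germinal centre and division genes was not. They were chosen from single-cell counts of unique molecular identifiers (UMIs, each marking 1 captured RNA molecule). A cell of the B gate had at least 2 UMIs of MS4A1 and CD79A together, more of these than of CD3D, CD3E and CD3G, and JCHAIN below 1% of its UMIs. MS4A1 is the gene of CD20 and CD79A that of a B cell receptor chain, the CD3 genes mark T cells and JCHAIN marks antibody-secreting cells. FCER2 B cells had in addition at least 1 UMI of FCER2 and none of RGS13, MYBL1, MKI67 or TOP2A. The first pair of these marks germinal centre B cells and the other pair dividing cells. There were 635 FCER2 B cells, which were 15.0% of 4241 B cells of the gate (exact 95% interval 13.9 to 16.1) and 3.09% of 20567 cells kept by the authors (2.86 to 3.33). The remaining 3606 B cells of the gate are called other B cells. Of these, 2141 had no UMI of FCER2 or of the germinal centre and division genes and are called FCER2-negative B cells, 458 had a germinal centre UMI and no division UMI, and 1007 had a division UMI.

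The study followed acute graft-versus-host disease (GVHD), an attack of donor T cells on the tissues of a transplant recipient. Per the labels' protocols, it used 4 colon samples of animals that received allogeneic blood-forming cells and 4 of untransplanted healthy controls. Viable CD45-positive leukocytes were sorted from thawed samples. The sort also took cells negative for a CD45 label marked IVas, and in 2 GVHD samples it parted host from donor cells by the MHC class I molecule MAMU-A001. The labels name 13 libraries, of which 3 hold host and donor cells together, 4 are host fractions, 2 are donor fractions and 4 are healthy controls. How the GVHD libraries fall on the 4 GVHD samples of the protocol was not resolved here. No source used here gives the age, sex or treatment of the animals.

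CD23 is carried in humans and mice by mature B cells that have not entered a germinal centre, and interleukin 4 and CD40 signals raise it. It binds IgE and also CD21, the complement receptor encoded by CR2, and the protease ADAM10 sheds it from the surface. In the gut such B cells lie in Peyer's patches and lymphoid follicles, where naive cells enter from blood, while germinal centre cells divide and plasma cells leave for the lamina propria.

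Barcodes end in a number from 1 to 13, and the sources used here do not say which label a number belongs to. The libraries are therefore called by their numbers, no test between label groups was made, and a group is given beside a library only as inferred from the order of the labels. Libraries 4 and 6 share 5323 barcodes, while other pairs share from 1 to 55 within numbers 1 to 7 or 8 to 13 and at most 3 across them. In label order, 4 and 6 fall on a pair of host libraries whose names carry the same number after NHP. Library 4, with 39 kept cells and no B cell, was left out. Of the barcodes of FCER2 B cells, 2 were also kept in another library, and in neither case as an FCER2 B cell. Between 29 and 2858 cells were kept in each of the 12 libraries, and the median kept cell had 3412 UMIs. Libraries 2, 12, 3, 8, 9 and 11 held at least 20 FCER2 B cells and at least 20 other B cells, and all ratios come from these. By inference library 2 is a donor fraction, library 12 a combined GVHD library, and 3, 8, 9 and 11 are healthy controls. Of the 635 cells, 586 (92.3%) came from libraries 3, 8, 9 and 11, and 4 from libraries with too few cells (2 each from 5 and 13).

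FCER2 RNA was sparse. Of the FCER2 B cells, 415 had 1 FCER2 UMI, 133 had 2, 46 had 3, 20 had 4 and 21 had 5 or more. The median depth of FCER2 B cells was 2860, 3253, 3168, 2806, 3128 and 2635 UMIs in libraries 2, 12, 3, 8, 9 and 11, against 3886, 3404, 3326, 2952, 2859 and 3031 UMIs in FCER2-negative B cells, so a cell with no FCER2 UMI may still have carried the transcript. An FCER2 UMI was found in 21.7% of the B gate, against 0.499% of 11228 T cells (at least 2 CD3 UMIs and none of MS4A1 or CD79A), which should lack the gene, at median depths of 3511 and 3088 UMIs. After each cell was thinned to 1500 UMIs the shares were 11.5% in the B gate and 0.160% in T cells. At the edge of the rule, 82 FCER2 B cells had exactly 2 UMIs of MS4A1 and CD79A, and 47 kept cells failed the rule only by having 1. A further 120 kept cells with FCER2 failed it only by JCHAIN of at least 1%, of which 4 lay below 2%, while 2 FCER2 B cells lay between 0.5% and 1%. Another 284 B cells of the gate had FCER2 together with a germinal centre or division UMI.

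The cells carried the markers given for them, and whether they were resting was not tested. MS4A1 stood at 717, 1157, 1672, 1199.9, 1338 and 1680.4 CPM (UMIs of a gene per 1000000 UMIs of the same cells) in libraries 2, 12, 3, 8, 9 and 11, and FCER2 itself at 678, 823, 361, 458, 417 and 572 CPM. Both were used by the rule and these levels are a description. BANK1, a signalling adaptor of B cells that the rule did not use, was at 235, 322, 41.7, 363, 255 and 384 CPM in FCER2 B cells, against 0.333, 1.21, 0.977, 7.15, 4.55 and 4.24 CPM in T cells. The FCER2 B cells of library 3 were lowest in BANK1, and every library stood above its own T cells. These T cells were chosen to hold no UMI of MS4A1 or CD79A, so the gap to them is a description too. BANK1 against FCER2-negative B cells is given below. Of the division genes, RRM2, a subunit of the enzyme that makes deoxynucleotides, was listed at 0 in 4 of 6 libraries and at 41.7 CPM in library 3. CD69, an early activation gene, was higher than in other B cells in all 6 libraries, as given below. The cells are therefore called by the rule and not by the word resting.

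B cells were common in 4 libraries and scarce in the rest. In the libraries inferred to be combined GVHD, the B gate held 0.275% of 728 kept cells in library 10, 1.54% of 2858 in library 12 and 0.282% of 1416 in library 13. In those inferred to be host fractions it held 0.256% of 1952 cells in library 1, and no cell of 101 in library 6 or of 29 in library 7, which allows shares of up to 2.97% and 10.3% at a limit of 3 cells (exact upper bounds 3.59% and 11.9%). The inferred donor fractions had 2.59% of 2509 cells in library 2 and 1.06% of 849 in library 5. The inferred healthy controls had 71.1% of 2346 cells in library 3 (exact 95% interval 69.3 to 73.0), 34.4% of 2111 in library 8, 36.7% of 2820 in library 9 and 23.9% of 2848 in library 11. The exact lower bounds of libraries 3, 8, 9 and 11 lay above the exact upper bounds of the other 8 libraries. T cells made up 27.9%, 72.9%, 56.99%, 82.7%, 35.6%, 17.2%, 82.1% and 63.7% of libraries 10, 12, 13, 1, 6, 7, 2 and 5, against 13.8%, 30.6%, 47.3% and 55.3% in 3, 8, 9 and 11, so the ranges overlapped. Cells with JCHAIN of at least 1% made up 78.3% of library 10 and 0.603% of library 9. Intervals and limits cover counting error alone, and a CD45 sort precedes every share.

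**Figure D1:**
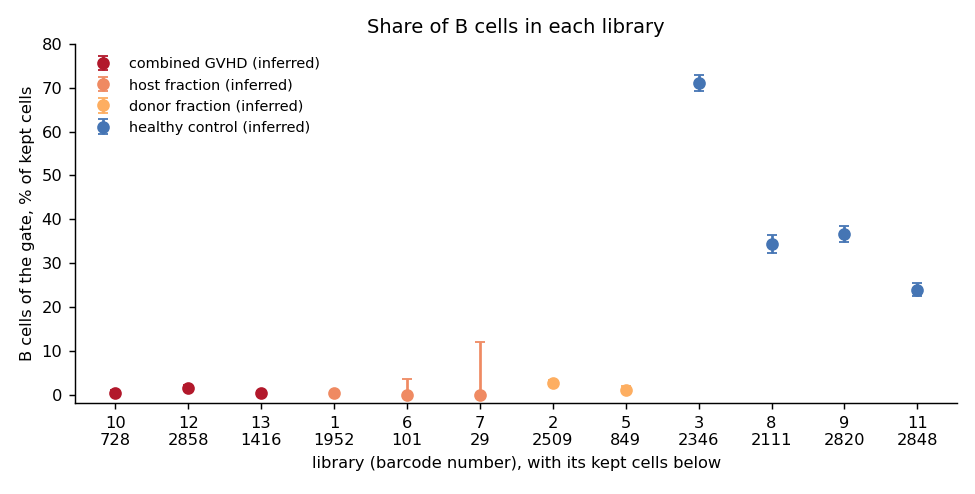
Percentage of kept cells in the B gate (vertical axis) in each of 12 libraries (horizontal axis, with the number of kept cells), with exact 95% binomial intervals; colours give the group inferred from label order. Libraries 3, 8, 9 and 11 lie between 23.9% and 71.1%, and the other 8 lie at or below 2.59%.

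Many B cells also held CD3 RNA. At least 1 CD3 UMI was found in 8.33, 14.3, 35.8, 17.02, 24.2 and 24.9% of FCER2 B cells of libraries 2, 12, 3, 8, 9 and 11, against 31.7, 43.5, 39.4, 32.6, 35.3 and 50.9% of other B cells. In FCER2-negative B cells the share was 35.3, 45.5, 39.7, 29.2, 29.8 and 35.6% in the same libraries. The share was lower in FCER2 B cells than in either class in all 6 libraries, with 24 and 21 FCER2 B cells in libraries 2 and 12. Against FCER2-negative B cells the exact intervals overlapped in libraries 2, 12, 3, 9 and 11, and were apart in library 8. With B cells restricted to those without any CD3 UMI, the B share was 43.3% in library 3 and 13.4% in library 11. No doublet caller was run, and the part of doublets or free RNA in these UMIs was not tested.

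Of the 6 libraries with enough cells, FCER2 B cells took the largest share of B cells in libraries 12 and 2. They made up 36.9% of 65 B cells in library 2 (exact 95% interval 25.3 to 49.8) and 47.7% of 44 in library 12 (32.5 to 63.3). They made up 5.69% of 1669 in library 3 (4.63 to 6.91), 19.4% of 727 in library 8 (16.6 to 22.5), 16.0% of 1034 in library 9 (13.8 to 18.3) and 27.1% of 682 in library 11 (23.8 to 30.6). The intervals of libraries 2 and 12 lie above those of 3, 8 and 9, and the interval of library 2 overlaps that of library 11. In the libraries with fewer B cells, FCER2 B cells were 2 of 9 in library 5, 2 of 4 in library 13, 0 of 5 in library 1 and 0 of 2 in library 10. Cells with a germinal centre UMI and no division UMI were 0 of 65 and 0 of 44 B cells of the gate in libraries 2 and 12, which allows shares of up to 4.62% and 6.82% at a limit of 3 cells (exact upper bounds 5.52% and 8.04%), against 5.93%, 11.4%, 17.2% and 14.4% in 3, 8, 9 and 11. Cells with a division UMI, with or without a germinal centre UMI, were 10.8% and 2.27% of the gate in libraries 2 and 12, and 30.7%, 12.1%, 21.1% and 26.4% in 3, 8, 9 and 11.

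Counted among B cells without germinal centre or division UMIs, the FCER2 share was 41.4, 48.8, 8.98, 25.4, 25.9 and 45.8% in libraries 2, 12, 3, 8, 9 and 11. Thinned to 1500 UMIs it was 25.9, 37.2, 4.63, 15.3, 13.5 and 31.9%. In both forms library 11 lay close to libraries 2 and 12, and library 3 was lowest. Library 3 had the highest B share and the lowest FCER2 share of the 6. FCER2 was not confined to FCER2 B cells by the rule: 23.8% of germinal centre B cells and 17.4% of dividing B cells had an FCER2 UMI, at median depths of 4318 and 6128 UMIs, pooled over libraries. Within libraries 3, 8, 9 and 11 the shares were 5.05%, 22.9%, 31.5% and 29.6% of germinal centre and 8.59%, 10.2%, 27.98% and 31.7% of dividing B cells, so the order of the classes differed between libraries. Thinned, the pooled shares were 10.3% and 5.66%, against 13.8% in B cells with neither kind of UMI.

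**Figure D2:**
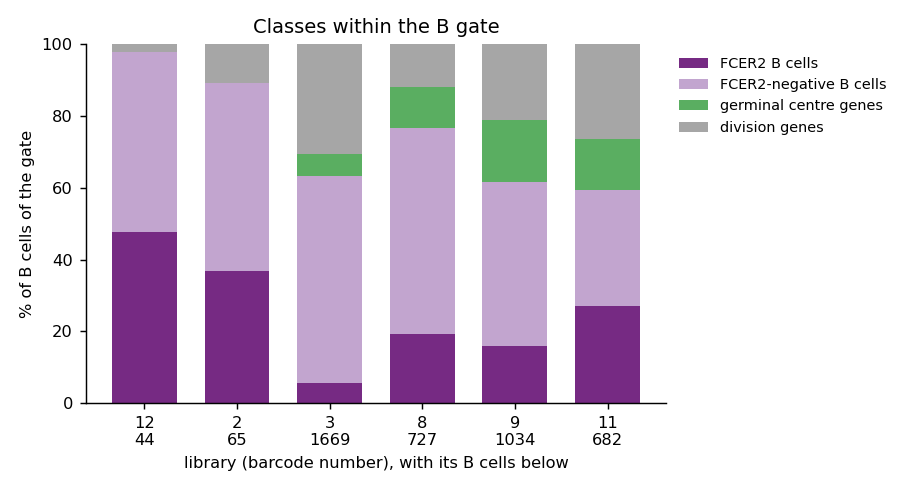
Percentage of B cells of the gate (vertical axis) that were FCER2 B cells, FCER2-negative B cells, cells with germinal centre UMIs and cells with division UMIs, in the 6 libraries with enough cells (horizontal axis, with the number of B cells). FCER2 B cells are 47.7% and 36.9% in libraries 12 and 2, and 5.69% to 27.1% in the other four.

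Gene levels were compared within each library, as the log2 ratio of summed CPM plus 5 in FCER2 B cells over other B cells. Each ratio below is the median over the libraries, with its range where given. A median with neither a range nor a count of libraries may hold libraries of the other sign. Libraries are unassigned and cells are not replicates, so no p-value is given, and a gene is counted where its ratio passed 2-fold, or kept 1 sign, in every library. Against other B cells, none of 6439 genes was 2-fold higher in each of 6 libraries (0%) and 4 were 2-fold lower (0.0621%): RRM2, CENPE and PLK1, which serve division, and 1 gene without a symbol. Higher at any size in all 6 were 254 genes (3.94%), lower 468 (7.27%), and the median over all genes was -0.14. In the FCER2 B cells of libraries 2 and 12, 1 UMI was worth 13.04 and 11.9 CPM, which limits these counts. RRM2, CENPE and PLK1 each stood at -1.66 in library 12, where 1 UMI was worth 10.8 CPM in other B cells. After thinning to 1500 UMIs, 0 of the 4 lower genes were still past 2-fold in every library. In libraries 3, 8, 9 and 11, with at least 50 cells of both classes, 11 of 6473 genes were 2-fold higher in each (0.17%) and 114 lower (1.76%). Against FCER2-negative B cells, 0 of 6291 genes were 2-fold higher (0%) or lower (0%) in 6 libraries, 145 were higher at any size (2.3%) and 174 lower (2.77%). In libraries 3, 8, 9 and 11, 61 of 6412 genes were 2-fold higher than in germinal centre B cells (0.951%) and 41 lower (0.639%), and 94 of 6567 were 2-fold higher than in dividing B cells (1.43%) and 333 lower (5.07%).

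The list of partners and proteases of CD23 also held the receptor NOTCH2. Of its measured genes, CR2 and NOTCH2 were higher in FCER2 B cells and the others varied in sign. CR2, the gene of CD21, was at 78.3, 191, 47.7, 200.4, 114 and 243 CPM in FCER2 B cells of libraries 2, 12, 3, 8, 9 and 11, against 59.8, 96.9, 40.8, 121, 86.7 and 128 CPM in other B cells. The FCER2 B cells were higher within each library, by a median log2 ratio of 0.54 (0.20 to 0.94), although levels of the classes overlapped between libraries. The ratio to FCER2-negative B cells was 0.35, higher in 6 of 6. NOTCH2, a receptor that directs B cells to the marginal zone in mice, was also higher in 6 of 6 against both, with 0.63 and 0.63, at a median of 18.3 CPM, which in libraries 2 and 12 rested on 2 and 3 UMIs. ADAM10 differed little, with 0.05 (-0.24 to 0.22) against other B cells. ADAM17, another shedding protease, stood at -0.33 (-2.80 to 0.12). ITGB2, a chain shared by the integrins that bind CD23 on myeloid cells, stood at 0.45 and was higher in 5 of 6. Of the 10 genes of this list, 5 were measured above 10 CPM. Of these, 2 were higher in every library and none lower, where 3.94% and 7.27% of all genes were.

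Of 18 measured genes of naive and follicular B cells, 8 were higher in every library against other B cells and none lower, with a list median of 0.50 against -0.14 over all genes. Against FCER2-negative B cells 7 of 18 were higher in every library and none lower, with a list median of 0.42 against -0.02. Of all genes, 3.94% were higher and 7.27% lower against other B cells, and 2.3% and 2.77% against FCER2-negative B cells.

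FCMR, the gene of the IgM Fc receptor, was at 183, 251, 62.6, 293, 192 and 391 CPM in FCER2 B cells of libraries 2, 12, 3, 8, 9 and 11, against 72.9, 240.0, 20.8, 160.0, 144 and 234 CPM in FCER2-negative B cells. The difference was smallest in library 12, and the log2 ratio was 0.79 (0.06 to 1.39) over FCER2-negative and 1.58 (0.08 to 2.38) over other B cells. Against germinal centre B cells of libraries 3, 8, 9 and 11, at 9.87, 14.4, 11.8 and 16.5 CPM, the ratio was 3.75 (2.18 to 4.20). CD72, an inhibitory co-receptor, was 0.78 higher than in FCER2-negative B cells, in 6 of 6 libraries, and near the germinal centre level, with 0.16 (-0.53 to 0.42). BANK1 was higher than in other B cells in 6 of 6, by 0.81, but only 4 of 6 libraries had it higher than in FCER2-negative B cells (0.25). FCRL1 was higher than in FCER2-negative B cells in 6 of 6 (0.39), as was TXNIP (0.24). IGHM, the constant chain of IgM, was variable, with 0.17 (-1.61 to 1.83). IGHD was not found by symbol. FCRL1, TXNIP and IGHM were chosen after their values were seen.

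**Figure D3:**
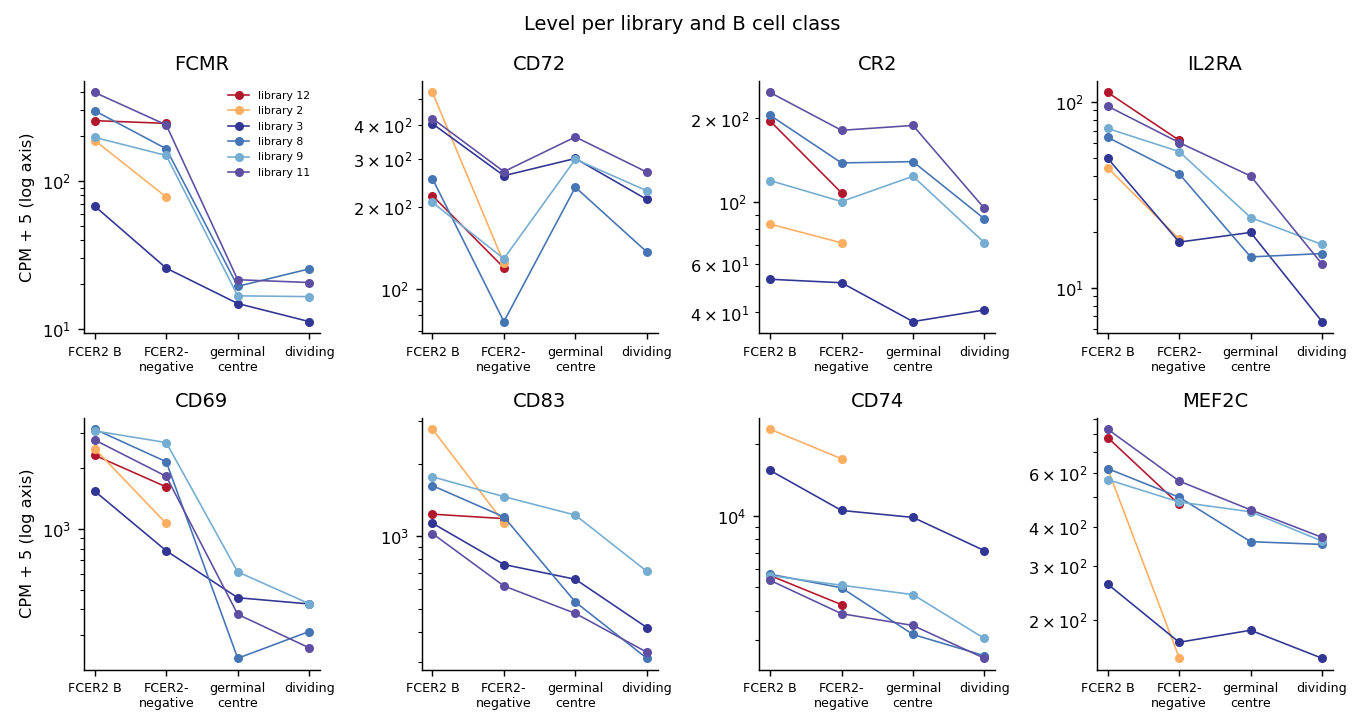
Level of 8 genes (CPM plus 5, log axis) in FCER2 B cells, FCER2-negative B cells, germinal centre B cells and dividing B cells; each line is 1 library, with germinal centre and dividing points in libraries 3, 8, 9 and 11. FCMR, IL2RA and CD69 are lower in germinal centre cells than in FCER2 B cells in each of these 4 libraries, while CD72 there is above FCER2 B cells in library 9 and below them in 3, 8 and 11.

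Homing genes set FCER2 B cells apart from germinal centre B cells more than from FCER2-negative B cells. Of 15 members measured, 2 lay above and 1 below other B cells in all 6 libraries, where 3.94% and 7.27% of all genes did. Their median was 0.45. Over FCER2-negative B cells the median was 0.08, with 3 higher and none lower (2.3% and 2.77% of all genes). Seen against germinal centre B cells, 7 were higher in each of 4 libraries, where 9.64% of all genes were, and 1 was lower, with a median of 1.17. Past 2-fold in each of these libraries were, among others, CCR7, CCR6, CD69 and ITGA4. CCR7, the receptor that leads lymphocytes to T cell zones, was at 101, 315, 339.9 and 72.2 CPM in FCER2 B cells of libraries 3, 8, 9 and 11, against 81.4, 298, 399 and 93.2 CPM in FCER2-negative and 37.02, 14.4, 87.1 and 1.84 CPM in germinal centre B cells. FCER2-negative B cells thus overlapped with FCER2 B cells, and germinal centre cells lay below both in each library. GPR183, which guides B cells to the outer follicle, and CD44, an adhesion receptor, had the same order, with 2.60 and 2.27 over germinal centre and -0.17 and -0.50 over FCER2-negative B cells. CCR6, a receptor used in mucosal follicles, was 1.60 over germinal centre B cells. CXCR5, the receptor for follicles, differed little from other B cells (0.18, -0.26 to 0.39). KLF2, a factor that governs lymphocyte traffic in mice, was at 26.1, 83.5, 0, 66.1, 44.03 and 54.6 CPM in FCER2 B cells of libraries 2, 12, 3, 8, 9 and 11 and was at 0 CPM in the T cells of library 3 too. CCR7, GPR183 and CXCR5 were named after their values were seen.

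Of 18 measured early activation genes, 3 were higher in all 6 libraries against other B cells and none lower (3.94% and 7.27% of all genes). The list median was 0.38. It ranged from 0.00 to 0.79 over the libraries and was lowest in libraries 2 and 12. Over the larger libraries 3, 8, 9 and 11, 10 of 18 were higher in each, where 11.2% of all genes were. Over FCER2-negative B cells the median was 0.09, with 2 higher and none lower (2.3% and 2.77% of all genes). CD69, a marker of recent activation that also retains cells in tissue, was at 2492, 2315, 1535, 3119.8, 3059 and 2757 CPM in FCER2 B cells of libraries 2, 12, 3, 8, 9 and 11, against 1060.2, 1612, 775, 2149.5, 2678 and 1819 CPM in FCER2-negative B cells and 907, 1519, 601, 1362, 1241 and 671 CPM in other B cells. Each library had the FCER2 B cells highest. The ratio was 1.32 (0.61 to 2.03) over other and 0.57 (0.19 to 1.23) over FCER2-negative B cells. CD83, which steadies MHC class II at the surface, was 0.50 and FOS, an immediate early factor, 0.45 over FCER2-negative B cells, both in 6 of 6. JUNB stood at 0.96 over other B cells, in 5 of 6. NR4A2, induced by receptor signals, was 0.62 over other B cells, with -0.57 in library 12, and -0.11 over FCER2-negative ones.

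IL2RA, the alpha chain of the interleukin 2 receptor, was at 39.1, 107, 44.7, 59.4, 66.9 and 89.8 CPM in FCER2 B cells, against 14.9, 53.9, 7.84, 25.1, 26.2 and 24.9 CPM in other B cells of libraries 2, 12, 3, 8, 9 and 11. The ratio was 1.18 (0.93 to 1.95) over other and 0.75 over FCER2-negative B cells, higher in 6 of 6 against both. T cells had more IL2RA than FCER2 B cells in 6 libraries and more CD69 in 5, with 360.4, 337, 123, 106, 210.5 and 119.6 CPM of IL2RA. Among B cells with no CD3 UMI, in 5 libraries, the ratios to other B cells were 1.08 for IL2RA and 1.44 for CD69.

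Of 7 measured MHC class II genes, 4 were higher in all 6 libraries against other B cells and none lower (3.94% and 7.27% of all genes). A further 13 listed names were not found by symbol. The median was 0.49 (0.03 to 0.95, lowest in library 12) over other, 0.33 over FCER2-negative and 0.82 over germinal centre B cells. CD74, the invariant chain that guards the class II groove, was at 23141, 5608, 15527, 5678, 5604 and 5353 CPM in FCER2 B cells of libraries 2, 12, 3, 8, 9 and 11, against 17374, 4229, 10534, 4979, 5104 and 3874 CPM in FCER2-negative B cells. FCER2 B cells were higher within each library, by 0.41 (0.13 to 0.56), while libraries 2 and 3 were far above the rest in both classes. MAMU-DOB and MAMU-DMA, which tune peptide loading, were higher in 6 of 6 by 0.38 and 0.34. MAMU-DRB1 was 0.08 over FCER2-negative and 1.07 over germinal centre B cells; reads of close copies may be split between class II genes.

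Of 20 measured signalling genes of the B cell receptor, 2 were higher in all 6 libraries against other B cells and none lower. Of all genes 3.94% and 7.27% were, and the list median was 0.10. Over FCER2-negative B cells 5 were higher and 1 lower in all 6 (2.3% and 2.77% of all genes). The median there was 0.14 against -0.02 over all genes. CD72, given above, was among the higher ones. Over germinal centre B cells the median was -0.39, with 2 higher and 4 lower (9.64% and 28.6% of all genes). RASGRP2, an activator of the adhesion switch Rap1, stood at 0.69 over other B cells, in 5 of 6. DAPP1, an adaptor below the receptor, was lower than in FCER2-negative B cells in 6 of 6, by -0.42. Among 15 transcription factors, 3 were higher and 1 lower than in other B cells in all 6 libraries (3.94% and 7.27% of all genes). MEF2C, needed in mice for B cell responses to the receptor, was at 613, 776, 256, 614, 565 and 826 CPM in FCER2 B cells, against 146, 469, 164, 495, 478 and 559 CPM in FCER2-negative B cells of libraries 2, 12, 3, 8, 9 and 11. The FCER2 B cells were higher in each, by 0.59 (0.24 to 2.04). IRF4 was 0.62 over other B cells in 5 of 6. POU2AF1, a co-activator of immunoglobulin genes, was -0.93, lower in 5 of 6, at a median of 6.23 CPM.

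The rule removed cells with germinal centre and division UMIs, so lower levels of their companion genes against all other B cells are in large part fixed by it. Of 18 division genes, 18 were lower in each of the 4 larger libraries, where 32.1% of all genes were, and RRM2 was -3.79 (-5.46 to -2.62) over these 4. Against FCER2-negative B cells, from which the same UMIs had been removed, the division median was -0.36, and none of 12 genes was higher or lower in every library. The germinal centre list had a median of -0.02 there, with 2 of 12 lower in every library (2.77% of all genes). These were NEIL1, a DNA glycosylase (-0.91), and ELL3, an elongation factor (-0.45). Against germinal centre B cells 11 of 13 were lower in each of 4 libraries, where 28.6% of all genes were, and 1 was higher. BCL6, the master repressor of the germinal centre, was -1.14 and LMO2 -1.53, both past 2-fold in each. GCSAM, a membrane adaptor, was -2.31 and EZH2, a histone methyltransferase, -1.54.

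Of 8 measured memory B cell genes, none was higher and 1 was lower in all 6 libraries against FCER2-negative B cells. Of all genes 2.3% and 2.77% were, and the list median was -0.32. The list median was 0.26 over other B cells, with none higher or lower in all 6. It was 0.58 over germinal centre B cells, with 2 higher and 1 lower in each of 4 libraries (9.64% and 28.6% of all genes). The lower one was CD86, a co-stimulator of T cells, at 0, 23.9, 44.7, 39.6, 95.1 and 31.7 CPM in FCER2 B cells of libraries 2, 12, 3, 8, 9 and 11, against 26.5, 57.2, 56.03, 108, 107 and 70.5 CPM in FCER2-negative B cells. The difference was smallest in library 9 and the ratio was -1.07 (-2.66 to -0.17). AIM2, a DNA sensor found in human memory B cells, stood at -0.38, and FCRL5 at 0.10. Among immunoglobulin genes, IGHA2, an IgA constant chain, was at 561, 549, 1293, 1270.4, 669 and 810.3 CPM in FCER2 B cells, against 5248, 36636, 1341, 4311, 785 and 1001 CPM in FCER2-negative B cells. FCER2 B cells were lower in all 6 (-1.03, -6.05 to -0.05), and the gap was widest in libraries 12 and 2. T cells had 4509.7, 9324, 1471, 27171, 210.2 and 3875 CPM of IGHA2 in the same libraries, above the FCER2 B cells in 5 of 6, and the part of free RNA of plasma cells in this value was not tested. Plasma cell genes had a median of -0.33 over other B cells, with 3 of 10 lower in every library (7.27% of all genes). TXNDC5 and PDIA4, which fold secreted proteins, stood at -0.76 and -1.11, and TNFRSF17, a survival receptor of plasma cells, at -1.33. TXNDC5 was lower in all 6 libraries (-1.66 to -0.28), but PDIA4 was at 0.84 in library 12 and TNFRSF17 at 0.32 in library 2.

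Interleukin 4 and CD40 response genes had no common direction. Of 11 measured, 1 was higher in all 6 libraries against other B cells (3.94% of all genes) and none against FCER2-negative B cells (2.3%). The medians were 0.02 and 0.04. The higher one was NFKBIA, the inhibitor of NF-kappaB (0.50). IL4R, the receptor for interleukin 4, was at 117, 35.8, 101, 39.6, 89.8 and 33.5 CPM in FCER2 B cells of libraries 2, 12, 3, 8, 9 and 11, against 44.8, 10.8, 93.4, 80.4, 94.7 and 89.8 CPM in other B cells. It was higher in 3 of 6 and lower in the rest, with 0.02 (-1.30 to 1.37). Germinal centre B cells of libraries 3, 8, 9 and 11 had 88.9, 197, 155 and 110.2 CPM. The median ratio to them was -1.17, although FCER2 B cells were higher in library 3. IL4I1, an enzyme induced by interleukin 4, and ICAM1 had ranges that spanned 0 against other B cells (-0.53 to 1.28 and -1.51 to 0.99).

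Survival genes had a median of 0.11 over other B cells, with none of 11 higher and 1 lower in every library (3.94% and 7.27% of all genes). BCL2, which protects cells from death, was 1.91 (1.06 to 2.79) over germinal centre B cells and 0.14 over FCER2-negative B cells. BIK, which promotes death, was lower in 6 of 6 against other (-1.84) and FCER2-negative B cells (-0.73). BCL2L11, another killer of the family, stood at -0.68 over other B cells, with a range that spanned 0 (-3.32 to 0.87). None of 8 interferon genes was higher or lower in every library, with a median of 0.07. ISG15 stood at -0.27 and IFI6 at 0.27. Ribosome and translation genes had a median of 0.11, with 4 of 18 higher in every library (3.94% of all genes). EEF1A1 stood at 0.30 and was not among them, with -0.09 in library 12.

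**Figure D4:**
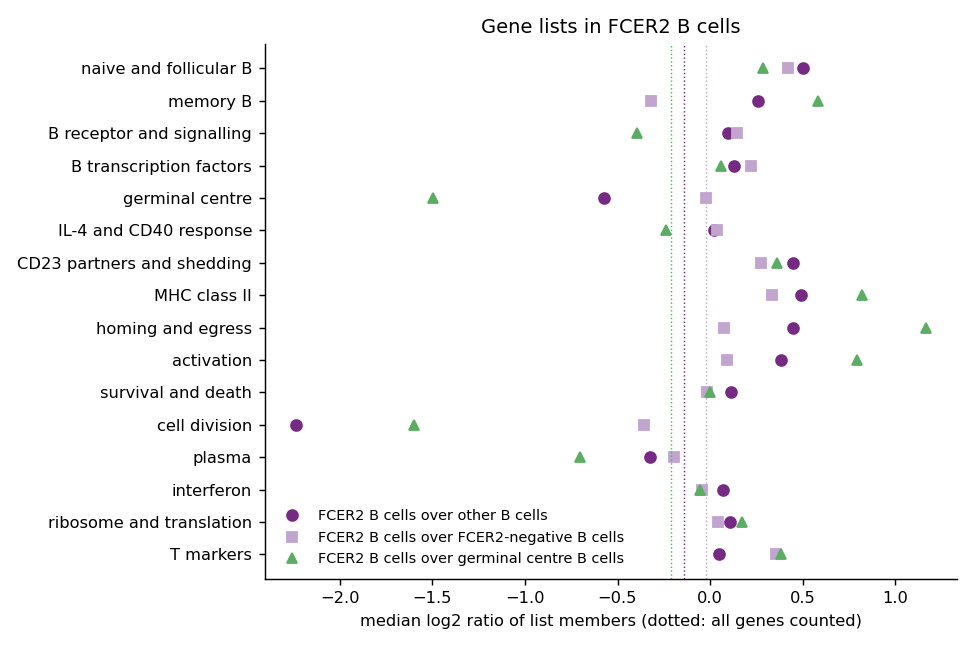
Median log2 ratio of the measured members of each gene list (horizontal axis) for FCER2 B cells over other B cells, over FCER2-negative B cells and over germinal centre B cells; dotted lines give the medians over all genes, and lists with fewer than 5 measured members are left out. Naive and follicular genes lie right of the dotted lines in each comparison, and germinal centre and division genes lie left of them against other and germinal centre B cells.

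Several leading genes belonged to no list. WIF1, a secreted inhibitor of Wnt signals, was at 39.1, 11.9, 20.9, 15.4, 12.3 and 111 CPM in FCER2 B cells of libraries 2, 12, 3, 8, 9 and 11, against 19.9, 0, 2.46, 1.44, 7.29 and 59.2 CPM in FCER2-negative B cells and 0 in germinal centre B cells of libraries 3, 8, 9 and 11. It was higher in 6 of 6, by 1.78 over other and 1.26 over FCER2-negative B cells, and only library 11 had a level above 100 CPM. In library 12 its level was that of 1 UMI. HMGN3, a nucleosome-binding protein, was at 26.1, 47.7, 26.8, 83.7, 33.5 and 54.6 CPM in FCER2 B cells, against 0, 45.7, 10.1, 14.4, 9.93 and 20.1 CPM in FCER2-negative B cells. It was the only gene past 2-fold over FCER2-negative B cells in each of libraries 3, 8, 9 and 11 (0.016% of 6266 genes), and library 12 had nearly equal levels. CASP4, an inflammatory caspase, was 0.60 and SNX29 1.18 over FCER2-negative B cells, in 6 of 6. AREG, a growth factor of the EGF family, was 1.52 over other and 1.25 over FCER2-negative B cells, in 6 and 5 of 6. FUOM, which converts fucose, was 1.20 over other B cells. Entries named Metazoa_SRP, which mark many copies of 1 small RNA, also reached 1.36 and cannot be told apart by reads.

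The lowest genes besides RRM2, PLK1 and CENPE included ASPM, HMGB2, HIST1H1D and RNASEH2A, which serve division, chromatin or DNA repair, with medians of -2.60, -2.14, -2.11 and -1.91 over other B cells. NEDD4L, a ubiquitin ligase, was -2.22 over other B cells and -1.55 over FCER2-negative ones. SEC14L1 was -1.89 and -0.93. TUBB2B, a tubulin, was -1.85 and -1.25, lower in 6 of 6 against both.

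**Figure D5:**
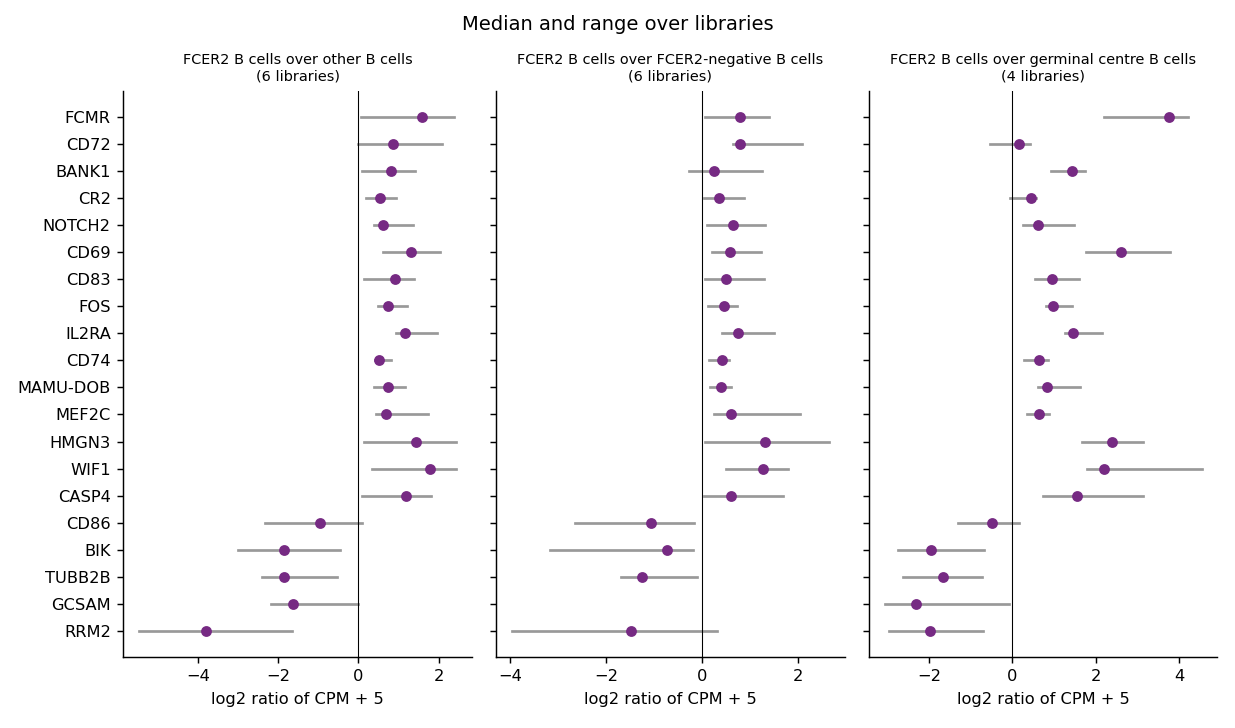
Median (points) and range over libraries (lines) of the log2 ratio of CPM plus 5 for 20 genes, for FCER2 B cells over other B cells, over FCER2-negative B cells and over germinal centre B cells; GCSAM was too low to be measured against FCER2-negative B cells. IL2RA and CD69 lie right of 0 in all panels, and CD86 lies left of 0 in every library against FCER2-negative B cells.

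Against germinal centre B cells, the 61 genes higher past 2-fold included BTLA, an inhibitory receptor (2.25), ANXA1 (3.05), CD44, TXNIP and BCL2. The 41 lower genes included replication genes MCM3, MCM4, MCM6 and MCM7 (-1.60, -2.06, -1.64 and -1.60) and the DNA ligase LIG1 (-1.54). These cells had no MKI67 or TOP2A UMI, and their median depth was 3535 to 5206 UMIs, against 2635 to 3168 UMIs in FCER2 B cells of the same libraries. BTLA, ANXA1, the MCM genes and LIG1 were chosen after their values were seen.

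Levels within FCER2 B cells were also set side by side between barcode numbers 1 to 7 and 8 to 13. A further division, within these sets, is given in the next paragraph. Of 1131 genes with at least 100 CPM on average, 11 were 2-fold higher in libraries 2 and 3 than in each of 8, 9, 11 and 12 (0.973%) and 75 were lower (6.63%). RGS1, which dampens chemokine receptors, was at 1878, 788, 2825, 632, 741 and 532 CPM in libraries 2, 12, 3, 8, 9 and 11, and CXCR4, a chemokine receptor, at 796, 179, 479.8, 143, 192 and 233 CPM. Lower genes included ETS1, a lymphocyte factor, at 39.1, 465, 68.5, 348, 343 and 451 CPM and ITGA4, an integrin chain, at 13.04, 119, 41.7, 192, 148 and 204 CPM. RPL31, a ribosomal gene among the higher ones, was at 2165, 477, 2074, 247, 298 and 262 CPM. These genes were chosen by the division into numbers 1 to 7 and 8 to 13, so their values are a description. Kits of versions 2 and 3 were used, per the labels' protocols, and no source used here says which library had which, so kit and animals cannot be told apart.

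Within these sets, 4 of 1131 genes were 2-fold higher in library 2 than in 3 and in library 12 than in each of 8, 9 and 11 (0.354%), and 4 were lower (0.354%). The higher ones with a symbol were MZB1, a chaperone of antibody-secreting cells, at 809, 322, 179, 119, 89.8 and 130.3 CPM in libraries 2, 12, 3, 8, 9 and 11, and RANBP1, at 117, 406, 20.9, 106, 127 and 66.9 CPM. The lower ones were RFTN1, a raft protein of B cell signalling, at 39.1, 35.8, 191, 152, 195 and 113 CPM, HIST1H1D, NANS and 1 without a symbol. These genes were chosen by their values, and library 2 had 24 and library 12 had 21 FCER2 B cells.

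Markers of other cells were low in FCER2 B cells. The summed level of 12 T markers found, without the CD3 genes, was 104 to 533 CPM over the 6 libraries, against 119.6 to 414 CPM in other B cells and 2833 to 7890.0 CPM in T cells. Myeloid markers summed to 26.1 to 149.7 CPM, with 7 of 12 at 0, among them S100A8, CD14 and C1QA. Their median was 70.6 CPM, against 50.4 CPM in other B cells and 48.8 CPM in T cells. Follicular dendritic and stromal markers summed to 21.1 to 54.6 CPM, with 9 of 12 at 0, among them FDCSP, CXCL13, CLU and COL1A1. Their median was 40.4 CPM, against 30.85 CPM in other B cells and 86.1 CPM in T cells. In other B cells, which held more UMIs in sum, 1 of 12 myeloid and 5 of 12 stromal markers were at 0. Epithelial markers summed to at most 15.9 CPM. Plasma cell genes other than JCHAIN summed to 1277 to 2413 CPM in FCER2 B cells, 1420.1 to 3512 CPM in other B cells and 1095 to 2836 CPM in T cells, so they did not set B cells apart from T cells. Their part in the results was not tested.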

How the data were processed

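Single colon leukocytes were counted with the 10x Genomics 3' droplet assay. The deposited raw matrix holds UMI counts per gene and barcode (34628 genes, 57086 barcodes), made by the authors. Per the submitters' processing notes Cell Ranger 3.1.0 and Seurat 3.1 were used. No source used here gives the genome build. The authors' list of 20606 kept cells was used as deposited. The lowest kept cell had 1502 UMIs, and 20567 cells remained without library 4.

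Members and gene lists were chosen with earlier results of these data known. Counts were summed per class and library and scaled to CPM. Log2 ratios used 5 CPM added, and genes needed a mean of 10 CPM over both classes. The 11 genes of the rule stayed out of every count. Genes named by rule were the 12 highest and 12 lowest of 1 sign in all libraries, and up to 4 of the largest ratios in each of 19 lists. Other genes, among them LMO2, MAMU-DMA and ADAM10, were named outside this rule. Symbols came with the file for 23811 gene IDs and from the gene name table for 695 more. The ratio step was tested on simulated data. Alternatives were another B gate, JCHAIN limit, FCER2 limit, scaling, depth, filter, pseudocount, class and library choice. Python 3.11.15, scipy 1.17.1 and edgeR 4.0.16 (TMM factors alone) were used. Sequences of members were not used here, and some genes the rule names are not reported here.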

Additional observations from a re-analysis of the deposited data

Results flagged for a closer look

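Over the 6 libraries, some ratios of FCER2 B cells to other B cells had 1 library far from the other 5, by Dixon's criterion; chance flags about 1 in 20 groups of values, and 102 groups were looked at. Library 2 stood apart in the list median of memory B genes (-1.23, against a median over libraries of 0.14), in ADAM17 (-2.80, against -0.33), CCL22 (-4.95, against 0.21), IFIT2 (-2.32, against 0.45) and TYROBP (-4.90, against 0.67). In library 2 the FCER2 B cells were 24 and 1 UMI was worth 13.04 CPM.

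Library 12 stood apart in the list medians of CD23 partners and shedding (0.94, against 0.34) and of cell division (1.65, against -2.24), and in CD2 (3.40, against 0.61), NR4A2 (-0.57, against 0.62) and STMN1 (1.92, against -3.19). Library 12 had 21 FCER2 B cells and 23 other B cells, of which 1 had a division UMI, and 1 UMI was worth 11.9 and 10.8 CPM in these classes.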

How the results depend on the processing

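The B share of libraries 3, 8, 9 and 11 stayed above that of every other library in each setting, but its size moved. With cells thinned to 1500 UMIs it was 57.7%, 22.5%, 26.3% and 17.3% in libraries 3, 8, 9 and 11, with 1.83%, 0.0512% and 0% in libraries 2, 1 and 10. With at least 3 B UMIs it was 68.9%, 28.4%, 31.2% and 22.1%, over all barcodes of at least 500 UMIs 43.2%, 24.1%, 28.3% and 19.8% (2.58% in library 5), and over B cells without a CD3 UMI 43.3%, 24.3%, 24.4% and 13.4% (1.99% and 1.08% in libraries 2 and 12). This last alternative was chosen after seeing the data. With FCER2 of at least 2 UMIs, FCER2 B cells were 15.4%, 31.8%, 1.08%, 6.33%, 4.64% and 11.9% of the gate in libraries 2, 12, 3, 8, 9 and 11. Thinned, they were 3.47%, 13.5%, 9.15% and 23.3% in libraries 3, 8, 9 and 11, and without CD3 UMIs 22.9% in 8 and 36.3% in 11.

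Counts of genes past 2-fold in every library depended on which libraries entered. Leaving out 1 library in turn gave 0 to 9 higher and 4 to 57 lower genes, the most without library 12. The counts of higher and lower genes were 5 and 63 with at least 3 B UMIs (5 libraries), 28 and 203 with at least 2 FCER2 UMIs (3 libraries), 11 and 114 with at least 50 cells, 27 and 150 in numbers 1 to 7 alone (2 libraries), 3 and 24 in 8 to 13 alone, and 6 and 73 without CD3 UMIs (5 libraries). Fewer libraries make the criterion easier to meet. Against FCER2-negative B cells 0 were lower, against germinal centre B cells 61 were higher and 41 lower, and a pseudocount of 1 CPM gave 7 lower. Of the 4 lower genes named above, 0 were among the 5 lower after thinning. With at least 3 B UMIs and without CD3 UMIs 2 of them stayed, and with TMM factors 3 did. All 4 stayed with each single library left out.

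List medians moved beyond the spread between libraries in 21 of 320 cases. Against germinal centre B cells they were 0.29 for naive and follicular, -0.39 for receptor signalling, -1.50 for germinal centre, 0.82 for MHC class II, 1.17 for homing, 0.80 for activation, -0.71 for plasma and 0.18 for ribosome genes. Against FCER2-negative B cells they were -0.025 for germinal centre, 0.077 for homing, -0.36 for division and 0.045 for ribosome genes. In numbers 1 to 7 alone they were 0.70 for naive and follicular and 0.27 for receptor signalling genes, and in 8 to 13 alone -0.54 for plasma genes. Thinning gave -0.11 for receptor signalling, no filter -0.020 for CD23 partners, at least 2 FCER2 UMIs 0.50 for interferon and TMM 0.17 for ribosome genes. Without CD3 UMIs plasma genes stood at -0.59 and ribosome genes at 0.18. The cause was not tested. Of 85 ratios of named genes, 16 changed sign in at least 1 setting; FCMR, CD69, IL2RA, CR2, CD74 and MEF2C were not among them. Each ratio sets classes of the same library side by side, and since the cells were chosen on the same counts it was not tested. No paired analysis of the label groups was possible because no source used here ties the libraries to labels, and no result comes from a test.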

Other observations

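FCER2 was also counted in cells that the rule leaves out for their JCHAIN. Of 2959 kept cells with JCHAIN of at least 1% of UMIs, 391 (13.2%) had an FCER2 UMI, at a median depth of 12088 UMIs, and 1.86% had one after thinning to 1500 UMIs. The share was highest in library 12, with 32.4% of 408 cells and 5.39% after thinning, against 0.160% of thinned T cells over all libraries. FCER2 stood at 25.4 CPM in these cells of library 12 and at 3.04 to 21.1 CPM in the other libraries with such cells counted.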
